A study of Mus musculus with 8 samples.

Results

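The genes described here are Rad18 and 8 genes of the Fanconi anemia and homologous recombination pathways, Fancb, Fanca, Fancd2, Fanci, Brca1, Brca2, Blm and Brip1. They were chosen by their place in these pathways and by measured values, since Rad18 and Fancb were higher in the tumor-initiating cell (TIC) fraction of the tumors described below. Each of the 9 was read by 1 transcript cluster of the array that names it alone, out of 19938 genes with such a cluster. All differences between the fractions given for these 9 genes come from the contrast used to choose them and are a description without a test.

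The study profiled 4 TIC samples and 4 CD24-negative samples on Mouse Gene 1.0 ST arrays (Affymetrix), sorted by flow cytometry from primary mammary tumors of FvB mice, each under 1.0 cm across. All animals carried MMTV-Neu, a transgene in which a mammary tumor virus promoter drives the Neu oncogene in mammary epithelium. Both fractions came from the same tumors, N251, N260, N283 and a 1:1 mixture of cells of N222 and N229 made before the sort (called the pool), so 5 tumors gave 4 pairs. The markers of the TIC gate and the ages of the animals are not stated in the material at hand. The p-values below set a difference against the spread between these arrays. In fits with the tumor as a block, that spread is what remains after the tumor is taken into account. Values are log2 intensities, and differences are TIC minus CD24-negative on that scale.

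DNA crosslinks and stalled replication forks are handled by a chain of proteins. RAD18 is a ubiquitin ligase that marks the sliding clamp PCNA at stalled forks and so recruits translesion polymerases. The Fanconi core complex, which contains the products of Fanca and Fancb, ubiquitinates the pair of proteins encoded by Fancd2 and Fanci, after which the lesion is cut and repaired by homologous recombination. BRCA1 and BRCA2 act in that recombination step, BRIP1 is a helicase that binds BRCA1, and BLM is a helicase that resolves recombination intermediates. Transcripts of many of these genes are known to be more abundant in cycling cells.

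Promoter windows from RefSeq (build GRCm38.p6, 250 bases before to 50 after the gene start) were found for 8 of the 9 genes, with Fancd2 not among them. Motifs of cell-cycle and housekeeping promoters were searched on both strands: an E2F-type motif (TTTNNCGC), the CCAAT box (CCAAT), the CHR element (TTTGAA) and the GC box (GGGCGG). The windows of Rad18 (chr6:112696621-112696920, minus strand) and Fancb (chrX:164980342-164980641, plus strand) are shown because these genes prompted the choice. Those of Brca2 (chr5:150522371-150522670, plus strand) and Brip1 (chr11:86201144-86201443, minus strand) are shown because they were the 2 with an E2F-type match. Capitals mark motif matches, and in Brip1 a CCAAT box and a GC box overlap.
Rad18: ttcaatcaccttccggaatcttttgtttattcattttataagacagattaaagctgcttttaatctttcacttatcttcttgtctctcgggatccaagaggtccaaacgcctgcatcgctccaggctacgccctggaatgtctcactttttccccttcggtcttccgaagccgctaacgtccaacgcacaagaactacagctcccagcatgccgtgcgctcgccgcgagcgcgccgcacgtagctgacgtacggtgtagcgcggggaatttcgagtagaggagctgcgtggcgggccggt
Fancb: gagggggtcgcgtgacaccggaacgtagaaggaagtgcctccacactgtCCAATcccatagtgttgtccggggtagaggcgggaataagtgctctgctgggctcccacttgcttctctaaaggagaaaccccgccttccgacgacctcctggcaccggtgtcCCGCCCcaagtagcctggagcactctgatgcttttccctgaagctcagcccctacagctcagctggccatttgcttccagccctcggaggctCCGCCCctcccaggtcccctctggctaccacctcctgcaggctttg
Brca2: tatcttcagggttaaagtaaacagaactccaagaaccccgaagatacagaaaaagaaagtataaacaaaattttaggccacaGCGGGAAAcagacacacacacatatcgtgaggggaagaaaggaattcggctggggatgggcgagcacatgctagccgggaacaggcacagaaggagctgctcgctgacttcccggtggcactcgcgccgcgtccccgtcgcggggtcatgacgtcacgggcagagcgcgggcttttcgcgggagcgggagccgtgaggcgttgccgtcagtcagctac
Brip1: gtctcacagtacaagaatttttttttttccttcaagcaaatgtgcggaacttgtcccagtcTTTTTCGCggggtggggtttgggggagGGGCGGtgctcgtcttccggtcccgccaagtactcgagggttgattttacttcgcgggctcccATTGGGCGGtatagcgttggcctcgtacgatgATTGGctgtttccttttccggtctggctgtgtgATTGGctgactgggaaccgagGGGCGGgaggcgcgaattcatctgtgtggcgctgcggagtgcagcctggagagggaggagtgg

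The Rad18 window held none of the 4 motifs. The E2F-type motif was found in 2 of 8 windows, against 5.27% of 27025 windows (the first listed for each gene). The CCAAT box was found in 5 of 8 (Fancb, Fanca, Brca1, Blm and Brip1), against 37.9% of all windows, and the GC box in 5 of 8 (Fancb, Fanca, Fanci, Blm and Brip1), against 35.9%. The CHR element was in 0 of 8, against 18.1%. A match describes letters in the window and does not show a bound site.

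**Figure D1:**
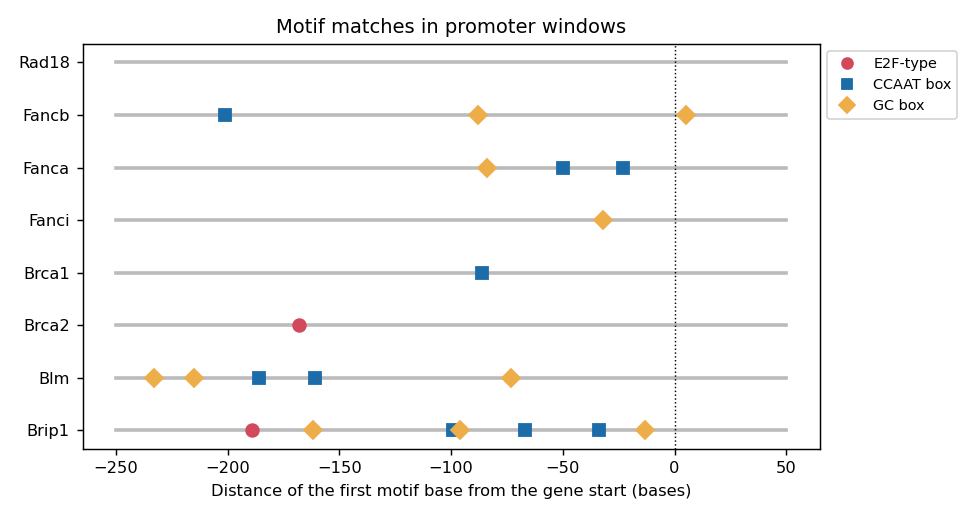
Motif matches in the promoter windows of 8 genes, by distance in bases of the first motif base from the gene start (dotted line); symbols mark the E2F-type motif, the CCAAT box and the GC box. Matches lie mostly before the start, and Rad18 has none.

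The cell makeup of the sorted fractions differed, which bears on every value below. Of 10 macrophage markers 9 fell in the TIC fraction (limma adjusted p under 0.05 over all genes, where 0.742% of genes fell), and the mean of the list was 6.55 to 6.93 in TIC arrays and 9.93 to 12.34 in CD24-negative arrays. Of 5 pan-leukocyte genes 3 were called lower in this fit, and of 6 T cell genes 1, Cd3g. All of these 5 and 6 genes were lower in TIC in all 4 tumors, at an unadjusted limma p under 0.05. Of all 19938 genes 2349 were lower in all 4 tumors, and 6.24% were lower at that p. With the tumor as a replicate block 5 and 1 were called lower (1.09% of all genes), and as a random block 5 and 4 (606 of all genes). The leukocyte means were highest in the CD24-negative array of N251 and lowest, within that fraction, in that of the pool. Cd24a RNA was higher in TIC in each of the 4 tumors, by 1.11 ± 0.56 (SD over tumors), from 0.385 in N283 to 1.73 in N251. Its limma adjusted p was 0.148 without the block, 0.0691 with the replicate block and 0.0293 with the random block. It was still bright in both fractions, at 12.06 to 12.50 in TIC arrays and 10.53 to 12.12 in CD24-negative arrays. In bulk RNA fewer cells of a type and less RNA per cell cannot be told apart. The part of leukocyte RNA in the differences between the fractions was not tested.

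In each of the 4 tumors all 9 genes were higher in TIC than in CD24-negative cells, by 1.38-fold (Blm) to 1.96-fold (Rad18) on average. Of all genes, 23.2% were higher in all 4 tumors. The median difference of the 9 was 0.69 and that of all genes 0.04. In the main fit (limma without a block), 2 of the 9, Rad18 and Fancb, were called higher, where 0.0502% of genes were. Neither was called when any 1 TIC array, the CD24-negative array of N260 or any whole tumor was left out. Those fits called only 0 to 5 genes of the whole table higher. With the tumor as a replicate block 6 of the 9 were called, where 0.863% of genes were called higher and 1.09% lower. That count was 0 of 9 when N260 or N283 was left out, and 4 without the pool. Of the whole table, 0 genes were called higher without N260 or N283, and 74 without the pool. With the tumor as a random block 7 were, where 2.16% of genes were called higher. Every TIC array lay above every CD24-negative array for 2 of the 9, again Rad18 and Fancb, where this held for 5.19% of genes. That separation is not independent of their calls without the block. Rad18 and Fancb prompted the choice by this same contrast, so the counts of calls among the 9 are a description and no test.

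**Figure D2:**
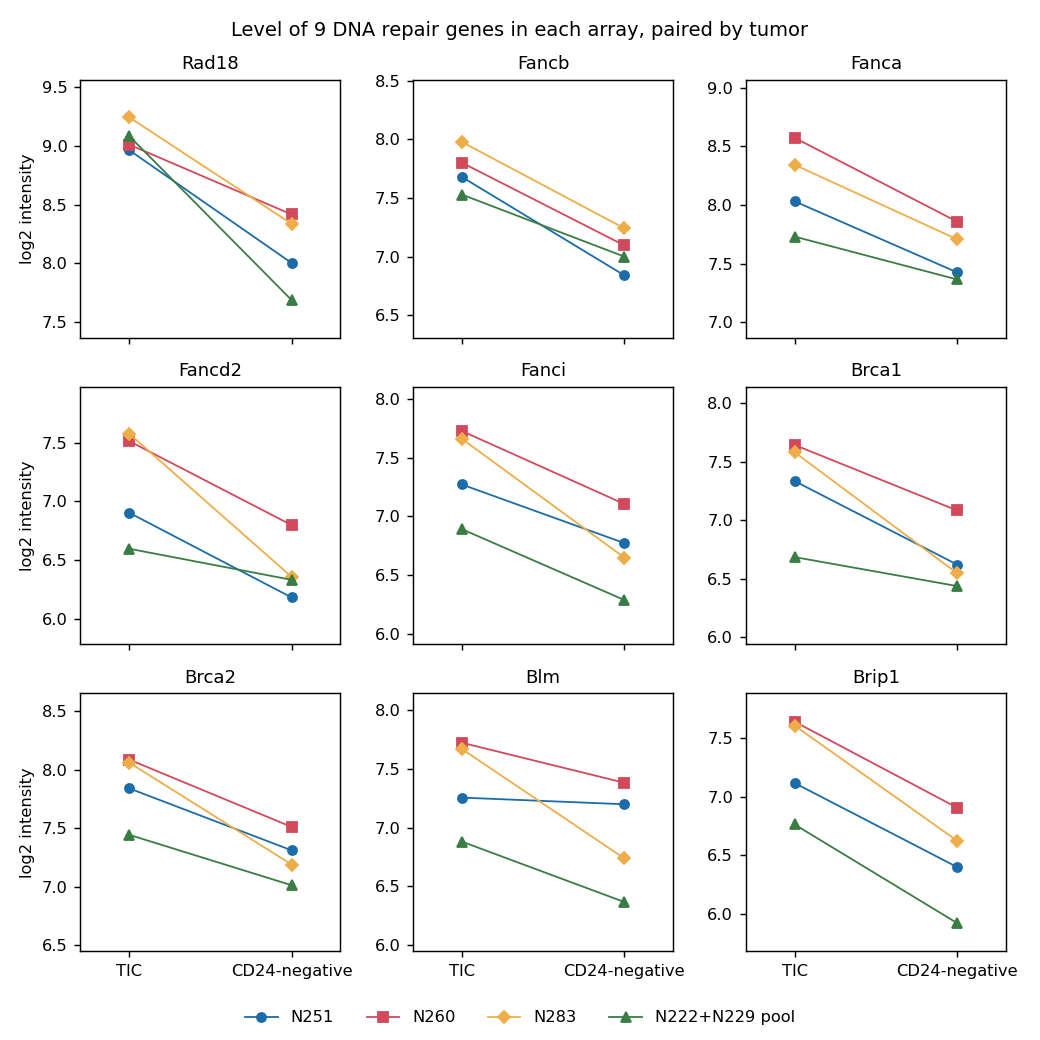
Log2 intensity of the 9 genes in each array, TIC on the left and CD24-negative on the right of each panel, with lines joining the arrays of 1 tumor; every panel spans the same height. All lines fall to the right, and the 2 fractions do not overlap for Rad18 and Fancb alone.

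Rad18 had 8.96, 9.01, 9.25 and 9.09 in the TIC arrays of N251, N260, N283 and the pool, against 8.00, 8.42, 8.34 and 7.68 in the CD24-negative arrays. The TIC values lay close together, the CD24-negative values were more spread, and the lowest was that of the pool. Rad18 thus averaged 9.08 ± 0.12 in TIC and 8.11 ± 0.34 in CD24-negative samples (SD, n = 4 each). The difference was 0.97 ± 0.33 (SD over 4 tumors), and ranged from 0.60 in N260 to 1.40 in the pool. It ranked 95th of 19938 genes from the highest.

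Among the core complex genes, Fancb, whose product forms the catalytic module of the complex with those of Fancl and Faap100, had 7.68, 7.80, 7.98 and 7.53 in TIC arrays and 6.84, 7.09, 7.24 and 6.999 in CD24-negative arrays, in the same tumor order. The fractions did not overlap, and the nearest values were those of the TIC array of the pool and the CD24-negative array of N283. The difference was 0.70 ± 0.13, between 0.53 in the pool and 0.84 in N251. Fanca, a scaffold of another module of the complex, had 8.03, 8.57, 8.34 and 7.73 in TIC arrays, against 7.42, 7.86, 7.71 and 7.36 in CD24-negative arrays. The fractions overlapped for Fanca, because the TIC array of the pool lay below the CD24-negative array of N260. The difference within tumors was 0.58 ± 0.15.

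The ubiquitinated pair varied more between tumors. Fancd2 had 6.90, 7.52, 7.58 and 6.60 in TIC arrays and 6.18, 6.80, 6.36 and 6.33 in CD24-negative arrays. Its difference of 0.73 ± 0.39 was 1.22 in N283 and 0.27 in the pool. Its partner Fanci had 7.27, 7.73, 7.66 and 6.89 in TIC arrays, against 6.77, 7.11, 6.65 and 6.29 in CD24-negative arrays, a difference of 0.69 ± 0.23. For both genes the TIC arrays of N260 and N283 were the high ones.

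Among the recombination genes, Brca1 had 7.33, 7.64, 7.58 and 6.69 in TIC arrays and 6.62, 7.08, 6.55 and 6.44 in CD24-negative arrays, with a difference of 0.64 ± 0.33. Brca2, whose product acts in the strand exchange step, had 7.84, 8.09, 8.06 and 7.44 in TIC arrays, against 7.31, 7.51, 7.19 and 7.01 in CD24-negative arrays. In both genes the TIC array of the pool was below the CD24-negative array of N260, while each tumor's own TIC array was the higher one. The Brca2 difference was 0.60 ± 0.19, from 0.43 in the pool to 0.87 in N283.

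The helicase genes stood at either end of the remaining range. Brip1 had 7.12, 7.64, 7.61 and 6.76 in TIC arrays and 6.40, 6.91, 6.62 and 5.92 in CD24-negative arrays. Its difference of 0.82 ± 0.12 was the most even across tumors of the 9, from 0.72 in N251 to 0.98 in N283. Blm had 7.26, 7.72, 7.67 and 6.88 in TIC arrays, against 7.20, 7.38, 6.74 and 6.36 in CD24-negative arrays. Its fractions overlapped widely. The Blm difference of 0.46 ± 0.37 was 0.93 in N283 but 0.06 in N251.

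**Figure D3:**
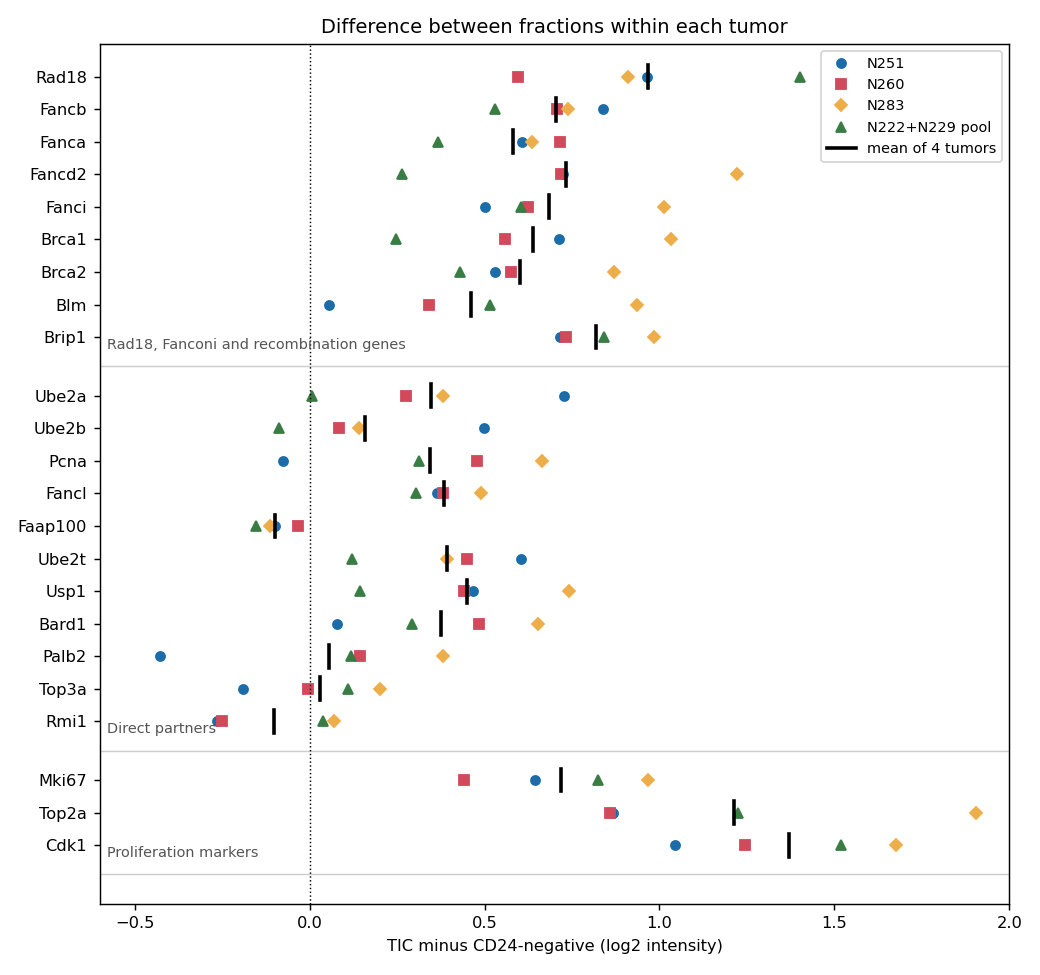
Difference between the fractions (TIC minus CD24-negative, log2 intensity) in each tumor, with the mean over 4 tumors as a bar, for the 9 genes, their direct partners and 3 proliferation markers. Every point of the 9 genes lies above 0, whereas those of Faap100 lie below it and those of Ube2b, Pcna, Palb2, Top3a and Rmi1 on both sides.

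The order of the tumors within a fraction was not used in the choice. Among TIC arrays, 8 of the 9 genes had the lowest value in the pool and the next lowest in N251, a pattern seen in 10.3% of all genes. The exception was Rad18, which was lowest in N251. The pool was lowest in both fractions for 6 of the 9 (all but Rad18, Fancb and Fancd2), against 21.1% of all genes. This pattern was picked out after the values were seen and has no test. The SD over TIC arrays was 0.12 for Rad18 and 0.19 for Fancb, and 0.30 to 0.48 for the other 7, where the median over all genes was 0.15. A call without the block depends on this spread, so the low SD of Rad18 and Fancb is not independent of their being called.

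Genes of proliferation had the same tumor order. Of 18 such genes all 18 had the pool lowest and N251 next among TIC arrays, and for 17 of them TIC exceeded CD24-negative cells in all 4 tumors. The mean of the 9 repair genes was 7.60, 7.97, 7.97 and 7.29 in the TIC arrays of N251, N260, N283 and the pool, and 6.97, 7.35, 7.04 and 6.71 in the CD24-negative arrays. The mean of the 18 proliferation genes was 8.82, 9.46, 9.28 and 8.32 in the TIC arrays and 8.13, 8.75, 8.25 and 7.44 in the CD24-negative arrays. In both sets N260 and N283 were high and the pool low. The difference was 0.72 ± 0.23 for the cycling marker Mki67, 1.21 ± 0.49 for the topoisomerase gene Top2a and 1.37 ± 0.28 for the mitotic kinase gene Cdk1. None of the 18 proliferation genes was called without the block (11 at an unadjusted p under 0.05), 6 were called with the random block, and 12 rose with the replicate block, Rrm2 and Tyms of nucleotide synthesis among them (1.15 ± 0.16 and 0.82 ± 0.18, blocked limma adjusted p = 0.0189 and 0.0256). Over all genes, 23.2% were higher in all 4 tumors and 8.02% were higher at an unadjusted p under 0.05. The random block called 2.16% of all genes higher and the replicate block 0.863%. With the replicate block 0 genes of the whole table were called higher when N260 or N283 was left out. The part of proliferation in the repair genes' differences was not tested.

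**Figure D4:**
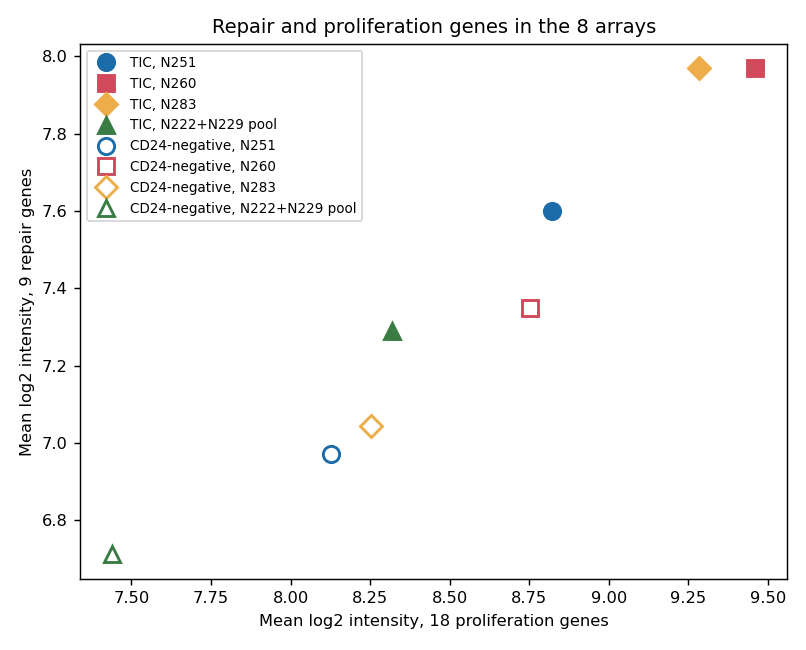
Mean log2 intensity of the 9 repair genes (vertical axis) against that of 18 proliferation genes (horizontal axis), 1 point per array; filled symbols are TIC and open symbols CD24-negative, and symbol shape gives the tumor. The TIC arrays of N260 and N283 are at the top right and the CD24-negative array of the pool at the bottom left.

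Leukocyte and epithelial markers are given here tumor by tumor beside the repair genes. The mean difference of the 9 was 0.63, 0.62, 0.93 and 0.58 in N251, N260, N283 and the pool. The macrophage mean differed by -5.58, -4.81, -4.01 and -2.99 in the same order. The mean of 5 luminal epithelial markers (Epcam, Krt8, Krt18, Krt19 and Cdh1) differed by 0.80 in N251 and 0.23 in N260, but by -0.01 in N283 and 0.04 in the pool. Without the CD24-negative array of N251, the one richest in leukocyte markers, the mean difference of the 9 genes was 0.67, and without that of the pool, the poorest in them, it was 0.585, against 0.69 with all arrays. Without that of N260 it was 0.798, and without that of N283 it was 0.696. Each of these fits leaves a TIC array without its pair, and the part of leukocyte RNA was not tested.

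Direct partners of the 9 gene products had mean differences of -0.10 to 0.45, and none was called without the block or with the replicate block. In the random-block fit 1 of them, Fancl, was called higher, where 2.16% of all genes were. The paralogs Ube2a and Ube2b encode the ubiquitin-conjugating enzymes that work with RAD18. Ube2a had 9.34, 9.56, 9.53 and 9.42 in TIC arrays and 8.61, 9.28, 9.15 and 9.41 in CD24-negative arrays, so that the pair of arrays from the pool was level while that of N251 was 0.73 apart. Ube2b differed by 0.16 ± 0.25. Pcna, the substrate of RAD18, differed by 0.34 ± 0.32 and was lower in TIC cells of N251 (11.46 against 11.54).

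The other genes of the Fancb module were Fancl and Faap100. Fancl, the ubiquitin ligase subunit, had 7.69, 8.00, 8.05 and 7.64 in TIC arrays, against 7.33, 7.62, 7.56 and 7.33 in CD24-negative arrays. Its TIC arrays lay above all CD24-negative arrays, by a difference of 0.39 ± 0.08 (limma adjusted p = 0.236, 0.0654 with the replicate block and 0.043 with the random block). Faap100 had 8.17, 8.08, 8.04 and 7.89 in TIC arrays and 8.27, 8.12, 8.15 and 8.04 in CD24-negative arrays, a difference of -0.10 ± 0.05 that was negative in all 4 tumors (limma adjusted p = 0.706). It was the only one of 90 other repair genes lower in every tumor. Ube2t, the conjugating enzyme for Fancd2, and Usp1, which removes that ubiquitin, differed by 0.39 ± 0.20 and 0.45 ± 0.24.

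Among partners of the recombination genes, Bard1, whose product pairs with BRCA1, differed by 0.38 ± 0.25 and was higher in the TIC fraction of all 4 tumors. Palb2, which bridges BRCA1 and BRCA2, differed by 0.05 ± 0.34, with -0.43 in N251 and 0.38 in N283. Top3a and Rmi1, which form a complex with BLM, differed by 0.03 ± 0.17 and -0.10 ± 0.18.

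Across 5 further groups of repair genes, 0 of 90 were called in either direction without the block. At an unadjusted p under 0.05, 24 were higher and 0 lower, where 8.02% of all genes were higher and 6.24% lower. With the tumor as a replicate block 6 rose and 0 fell, where 0.863% of all genes rose and 1.09% fell. The 6 repair genes were Rad51c (0.65 ± 0.10, blocked limma adjusted p = 0.0265), Rad54b (0.79 ± 0.14, 0.0244), Rad54l (0.67 ± 0.18, 0.0376), Gen1 (0.85 ± 0.29, 0.0424), Chek1 (1.09 ± 0.27, 0.0253) and Xrcc5 (0.72 ± 0.25, 0.047), each higher in all 4 tumors. The random-block fit called 9 higher, these 6 and Fancl, Fancm and Rad51b, where 2.16% of all genes were. None of the 6 was called with the replicate block when N260 or N283 was left out, where 0 genes of the whole table were called. Without the pool that fit called 4 of the 90 higher (Rad54l, Rad54b, Chek1 and Exo1), where 74 genes of the whole table were. Without N251 it called 7, the 6 and Rad51b, where 360 genes were. Without the block the smallest adjusted p among the 6 was 0.0559, of Rad51c. Every TIC array lay above every CD24-negative array for 9 of the 90, Rad51c and Xrcc5 among them, where this held for 5.19% of all genes. Rad51c encodes a recombination protein, Rad54b and Rad54l encode translocases of recombination, and Gen1 a nuclease that cuts Holliday junctions. Chek1 is the kinase of the replication checkpoint, and Xrcc5 encodes the larger Ku subunit of end joining.

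Of 19 other genes of the Fanconi group 0 were called without the block or with the replicate block and 2 with the random block (Fancl and Fancm), with a median difference of 0.09, and 9 were higher in all 4 tumors. The smallest p belonged to Fancm, the translocase that anchors the complex on DNA, with a difference of 0.44 ± 0.16 (limma adjusted p = 0.181, 0.0742 with the replicate block and 0.0347 with the random block). The recombination group of 30 had a median of 0.19, with 16 higher in all 4 tumors and 4 called with the block. Over all genes, 23.2% were higher in all 4 tumors, and 0.863% were called higher with the replicate block and 2.16% with the random block.

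The other 3 groups had slightly larger medians. Translesion genes (16) had a median of 0.21 and 0 calls with or without the block, with Ube2v2 at 0.29 ± 0.18, Zranb3 at 0.42 ± 0.32 and Rev3l, the catalytic subunit of polymerase zeta, at 0.26 ± 0.14. Checkpoint genes (14) had a median of 0.23, with 1 call with the block (Chek1), Rad1 of the clamp that senses damage at 0.37 ± 0.12 and the adaptor Mdc1 at 0.25 ± 0.16. End joining genes (11) had a median of 0.27, with 1 call with the block (Xrcc5), the polymerase gene Polq at 0.51 ± 0.31 and Xrcc6, the smaller Ku subunit, at 0.30 ± 0.21. No call was made without the block in any of these groups. Of all genes, the replicate block called 0.863% higher and 1.09% lower.

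**Figure D5:**
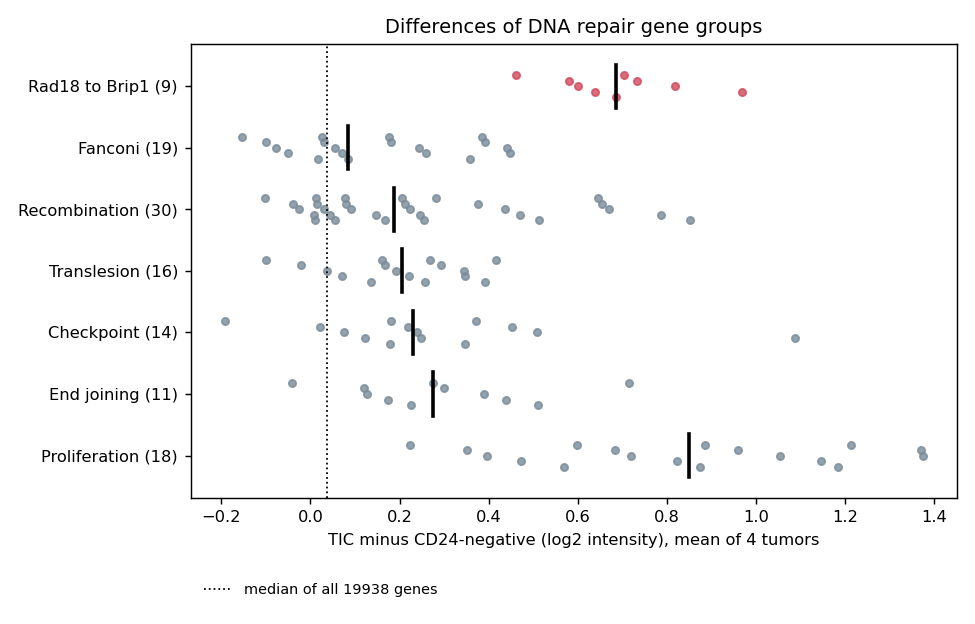
Mean difference over 4 tumors (TIC minus CD24-negative, log2 intensity) of each gene in 7 groups, with the group median as a bar and the median of all genes as a dotted line. The 9 chosen genes lie between 0.46 and 0.97, with a median of 0.69. The medians of the other repair groups lie between 0.09 and 0.27, but single genes there reach 1.09 (Chek1). The median of the proliferation genes is 0.85.

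The genes whose levels followed Rad18 most closely over the 8 arrays were Mir148b, Cep57, Pcsk7, Cdca7l and Ska2, with Pearson r of 0.978 to 0.967. For Fancb they were Cct8, Ints7, Cdca7l, Ssbp1 and Ctps, with r of 0.985 to 0.977. Cdca7l was in both sets. Rad18 and Fancb followed each other with r = 0.920, at rank 53 among the neighbours of Rad18 and 156 among those of Fancb. Both prompted the choice by being higher in TIC, so this r is not independent of the choice. The arrays share tumors and fractions, so these values describe likeness only.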

How the data were processed

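Deposited log2 intensities were produced with RMA and Partek, per the submitters' processing notes, which as listed here give no version, setting or genome build. They ran from 1.76 to 14.57, with array medians of 7.03 to 7.18. Of 35556 rows, 21789 carried 1 gene symbol, and the brightest row was kept for each of 19938 genes. The fit used lmFit and eBayes of limma 3.58.1 (R 4.3.3) on the 8 arrays, without a block, with Benjamini-Hochberg adjustment over all genes and a threshold of 0.05. Blocked fits add the tumor, since the labels give each tumor 1 array of either fraction. Deviations from group means of such pairs correlated at 0.322, 0.435, 0.300 and 0.557 in N251, N260, N283 and the pool. The titles name N251 and N260 where the growth protocol has other numbers, and titles were followed. Signal over background cannot be read from these values, and the number of arrays limits precision. The fits were tested on simulated data. The 9 genes and all lists were chosen with earlier results of these data known.

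Named genes are the 9, fixed partners, the 3 of smallest p in each repair and proliferation group, fixed markers, and the 5 most like Rad18 and Fancb (Rad54l and Rad51b were added after their values were seen). Some genes of the lists are not reported here. The markers of B cells, fibroblasts, endothelium and basal epithelium had 0 members called without the block, where 0.742% of all genes were called lower. With the replicate block 1 B cell marker, Cd79b, was called lower (1.09% of all genes). With the random block Cd79b and the fibroblast marker Lum were (606 of all 19938 genes). Lower in TIC in all 4 tumors were 2 of 4 B cell, 4 of 6 fibroblast, 3 of 5 endothelial and 0 of 5 basal markers, where 2349 of all genes were.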

Additional observations from a re-analysis of the deposited data

Results flagged for a closer look

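Among 98 groups of 4 values (named genes and list means by fraction), 1 held an array far from the other 3, where chance gives about 4.9. It was the mean of 6 fibroblast markers in the TIC fraction, at 6.941 in N251 against 6.699 to 6.733 in the other arrays. No value of the 9 repair genes stood apart in this way.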

How the results depend on the processing

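Against 10 genes called higher and 148 called lower, a replicate block for tumor gave 172 higher. The higher count was 26 with each array centred on its median, 3 after cyclic loess, 5 among genes at or above the median level and 2 with all rows tested. With the tumor as a random block 430 were higher and 606 lower. Leaving out an array or a tumor, with or without the block, gave 0 to 360 higher and 0 to 583 lower genes. Of the 90 other repair genes, 0 were called higher without the block, 6 with the replicate block, 9 with the random block, and 0 to 7 when an array or tumor was left out; Rad51c was the 1 gene called without the CD24-negative array of N251 or of the pool. None was called lower in any setting run. The mean difference of the 9 repair genes was 0.643 to 0.721 under the other scalings and 0.585 to 0.827 with an array or tumor left out. No member's difference changed sign in the 210 values recomputed, but many of these could not. A block, the other eBayes setting, all rows, the level filter and the mean of a gene's clusters leave a member's difference as it is. Leaving out a tumor gave the same differences with and without the block. Its sign was fixed too, since every member was higher in TIC in every tumor. The sign could change only under median centring, cyclic loess or with a single array left out. Of the 210 values, 3 moved by more than the SD over tumors, all of Brip1. They were 0.992 without the TIC array of the pool, 0.967 without the CD24-negative array of N260 and 0.639 without that of the pool. Rad18 and Fancb were both no longer called after cyclic loess, with all rows tested, without any 1 TIC array, without the CD24-negative array of N260, without any whole tumor, and with the block without tumor N260 or N283. The filter at the median level kept 3 of the 9 (Rad18, Fanca and Brca2), so no mean of the 9 is given for it.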
